A study of Mus musculus with 12 samples.

Results

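The effect of losing Mdr2 was measured in livers that already carried the Stat3Δhc deletion. The 3 arrays titled Stat3Δhc Mdr2-/- were set against the 3 arrays titled Stat3Δhc. These are 6 of the 12 arrays of the series, which were all hybridised with RNA of whole mouse liver, taken at 2 weeks of age, in 4 genotypes. Both groups carry the Stat3Δhc deletion and differ in the Mdr2 knockout. The labels do not say in which cells Stat3 is deleted. The other 6 arrays are Stat3Fl/Fl and Stat3Fl/Fl Mdr2-/- livers, with intact Stat3, and are used here for the same Mdr2 comparison on that background. The labels give neither the Cre line nor the strain. They do not say whether each array is a separate animal, so p-values measure only the spread between these arrays, which may be technical. Arrays carry the letters A, B and C within a genotype. Stat3Δhc arrays are called controls here, and values are given in the order A, B, C.

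Mdr2 is the protein of the gene Abcb4, a flippase that moves phosphatidylcholine across the canalicular membrane of hepatocytes into bile. Without phospholipid, bile acids in bile stay unbuffered and damage hepatocytes and bile duct cells, and Mdr2-/- mice are a model of sclerosing cholangitis. Stat3 is a transcription factor that carries signals of interleukin 6 and related cytokines and drives acute phase genes in hepatocytes. The series was designed to look for the pathways behind cholestasis and bile acid injury in mice without both genes.

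The targeted genes were read first. Abcb4 lay at 9.36, 8.92 and 8.91 on the log2 scale in the Mdr2-/- arrays and at 10.14, 10 and 10.28 in the controls, a log2 change of -1.08 (SE 0.14, adjusted p = 0.000293). The groups did not overlap, and the transcript was lower but still measured in the knockout. Stat3 lay at 8.12, 7.80 and 7.82 in the Mdr2-/- arrays and at 7.71, 7.73 and 7.69 in the controls, a log2 change of 0.20 that did not pass the test (adjusted p = 0.167). In the Stat3Fl/Fl arrays Stat3 lay at 9.19, 9.32 and 9.19, so its transcript was lower but still measured in the controls. The probes of either gene were not placed relative to the deleted part.

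Transcripts of other tissues separated the groups and were set apart from the liver genes. Of 123 tested skeletal muscle genes, 84 were lower in the Mdr2-/- arrays and 0 higher, with a median log2 change of -0.78. Among all 13977 tested genes 17.4% passed the test, 6.9% as higher and 10.5% as lower, and the median change was -0.02. Myh1, a fast myosin heavy chain, lay at 4.11, 4.50 and 4.47 in the Mdr2-/- arrays and at 10.09, 9.65 and 9.70 in the controls (log2 change -5.45, SE 0.16, adjusted p = 9.04e-10). The mean of the muscle list lay between 5.73 and 5.97 in the 3 Mdr2-/- arrays and between 6.87 and 7.06 in the 3 controls. Myl1, Acta1 and Atp2a1, which encode a myosin light chain, skeletal actin and the muscle calcium pump, fell by 4.17, 3.90 and 3.89 on the log2 scale. In Stat3Fl/Fl liver 94 muscle genes fell with Mdr2 loss.

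Exocrine pancreas transcripts were high in some controls and low in every Mdr2-/- array. The mean of the 29 tested pancreas genes was 5.77, 7.36 and 8.67 in the controls and 5.47, 5.6 and 5.75 in the Mdr2-/- arrays, so control C was highest and control A nearest to the knockouts. Cpb1, a pancreatic carboxypeptidase, lay at 4.81, 9.25 and 11.02 in the controls and at 4.29, 4.15 and 4.20 in the Mdr2-/- arrays, a log2 change of -4.15 (SE 1.42) that did not pass the test (adjusted p = 0.0618). Only 4 pancreas genes fell, with a list median of -1.81, and without control C 2 fell and the median was -0.94. Reg1 (log2 change -3.45, adjusted p = 0.0402) did not pass without control C (-2.33, adjusted p = 0.172), and 1 other array left out was enough to lose it in 8 further cases. Pnliprp1 and Dmbt1 fell by 3.26 and 3.2.

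The arrays also differed in the transcripts of sex. All 3 controls and Mdr2-/- arrays B and C had high Y-linked genes and low Xist, and Mdr2-/- array A had Xist at 11.3 and Y-linked genes at a mean of 3.93. Without Mdr2-/- array A all compared arrays share the Y-linked pattern. The count of changed genes was then 2606, of which 1959 were among the genes called with all arrays. The part of muscle, pancreas and sex transcripts in the liver results was not tested beyond these values and those given beside each group.

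**Figure D1:**
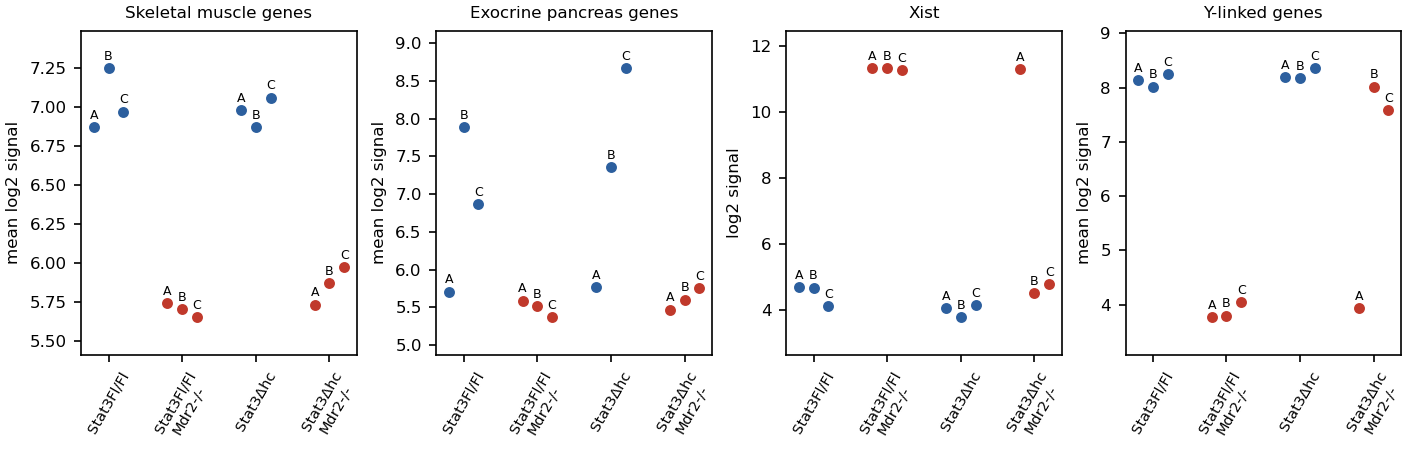
Mean log2 signal of the tested skeletal muscle genes, of the tested exocrine pancreas genes and of the Y-linked genes, and log2 signal of Xist, in each of the 12 arrays (letters) of the 4 genotypes. Muscle means lie at or below 5.97 in every Mdr2-/- array and at or above 6.87 in every array without the knockout, and pancreas means reach 8.67 in control C.

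Between the Mdr2-/- arrays and the controls 2431 of the 13977 tested genes passed the test, 964 higher and 1467 lower. Of these calls 99 are on a list of some other tissue, 1 higher and 98 lower. With the genes of those lists left out of the fit, 2343 genes passed, 967 higher and 1376 lower. At least 2-fold changes were found for 220 genes, with 89 rises (0.637%) and 131 falls (0.937%). Of the 131 falls, 56 (42.7%) are on a list of some other tissue, 49 of them on the skeletal muscle list, which leaves 75 on none. None of the 89 rises is on such a list. The 2 groups did not overlap for 2397 of the 2431 called genes, where 37.2% of all tested genes have groups that do not overlap. The count of called genes was 1153 without control C, 1403 without control A and 1538 without Mdr2-/- array C. The share called of all tested genes was 17.4% with all arrays and 8.27% without control C. It was 18.7% without Mdr2-/- array A and 14.4% without Mdr2-/- array B. Counts of list members with an array left out are to be read beside these shares. The count of at least 2-fold changes stayed between 201 and 237 with any single array left out. With each array centred on its median, the split was 635 higher and 2052 lower.

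Cyp2c39, a drug and fatty acid metabolising cytochrome P450 of the Cyp2c family, rose most. It lay at 11.97, 11.03 and 10.01 in the Mdr2-/- arrays and at 6.61, 6.38 and 6.39 in the controls, a 23.3-fold rise (log2 change 4.54, SE 0.36, adjusted p = 6.16e-06). Slco1a1, a sinusoidal organic anion transporter, lay at 8.27, 6.85 and 6.61 against 3.56, 3.87 and 3.57 (log2 change 3.58, SE 0.35, adjusted p = 4.08e-05). In both genes Mdr2-/- array A, the array with Xist, was the highest. Arrays B and C were also above every control, which the choice of the ranked genes required. Lcn2, the iron-siderophore binding protein lipocalin 2 of injured liver, lay at 11.46, 10.01 and 10.76 against 7.71, 7.88 and 8.25, a 6.93-fold rise (adjusted p = 0.000131). Plet1, an epithelial surface protein, lay at 8.61, 8.18 and 8.66 against 5.29, 5.6 and 5.6, a 7.91-fold rise (adjusted p = 9.18e-07).

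The other genes among the 15 largest rises had different known roles. Cacna1b, the pore subunit of a neuronal calcium channel, rose by 2.67 on the log2 scale, and Gdpd3, a lysophospholipase D, by 2.52. Ubd, a ubiquitin-like modifier induced by inflammatory cytokines, rose by 2.44, Mmp12, the macrophage elastase, by 2.42, and Elovl7, a fatty acid elongase, by 2.38. Atp6v0d2, a proton pump subunit, rose by 2.08 and the hydrolase-like gene Abhd1 by 1.81. Controls of Slco1a1, Gdpd3, Ubd, Mmp12 and Elovl7 lay under the 40th percentile of their arrays, the level of the filter on low values. These genes passed the filter through arrays in which they were higher. Slco1a1, at 3.99 or less in every array without the knockout, passed it only through Mdr2-/- arrays. The sizes of these rises are set against a signal near the low end of the array. Cxcl10, Igf2, Sqle and Cd74 complete the 15 and are described with their groups.

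Cyp3a16, a cytochrome P450 of the Cyp3a family known for its expression in the liver of young mice, fell most among the liver genes. It lay at 8.66, 8.22 and 7.97 in the Mdr2-/- arrays and at 11.26, 11.11 and 11.09 in the controls, 7.31-fold lower (log2 change -2.87, SE 0.24, adjusted p = 9.37e-06). Serpina1d, an alpha-1-antitrypsin gene, lay at 8.91, 8.77 and 8.52 against 11.65, 11.77 and 11.25, 7.06-fold lower (adjusted p = 1.1e-06). Cyp17a1, a steroid hydroxylase, lay at 7.49, 8.41 and 7.56 against 9.57, 10.32 and 10.36, 4.79-fold lower (adjusted p = 0.000948). These 3 genes were ranked only among genes whose groups do not overlap. The Cyp2c, Cyp3a, Cyp4a, Serpina1 and Slco1a families hold near-identical copies whose probes may share signal, so the assignment to 1 member is uncertain.

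Trim12a, of a tripartite motif family also rich in copies, was uneven in the knockout: 6.44, 4.24 and 4.46 against 7.09, 7.11 and 7.44 in the controls (log2 change -2.17, adjusted p = 0.0146). Array A stood above arrays B and C there, and the call was lost without control C, Mdr2-/- array B or Mdr2-/- array C (adjusted p = 0.0583, 0.0528 and 0.0629). The change was -2.87 without Mdr2-/- array A. Ndufs5, a subunit of respiratory complex I, fell by 1.92 and Ublcp1, a nuclear phosphatase of the proteasome, by 1.89. G0s2, the inhibitor of the triglyceride lipase Atgl, lay at 7.72, 7.59 and 7.80 against 9.32, 9.02 and 10.22 and fell by 1.82. Mmd2, Tc2n and Mctp2 fell by 1.84, 2.09 and 1.72. Aspn, the matrix protein asporin, fell by 2.24 and Tmem182 by 1.79. Tmem182 is known for muscle, though on no list here, and asporin for connective tissue around cartilage and muscle. Tc2n and Aspn reached at most the 15.5th and 17.5th percentile in the Mdr2-/- arrays, under the level of the filter. Both passed the filter only through arrays without the knockout, and their falls end near the low end of the array.

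**Figure D2:**
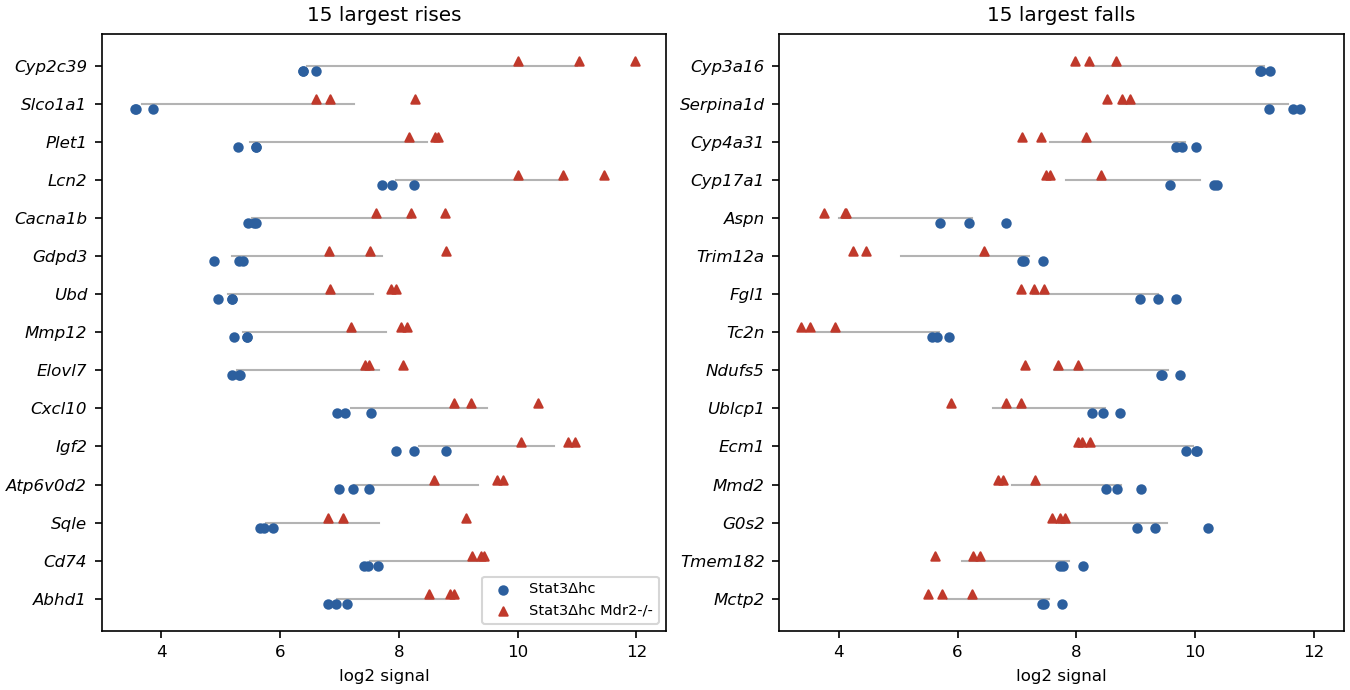
Log2 signal of the 15 genes with the largest rise (left) and the 15 with the largest fall (right) among those that passed the test, in the 3 control arrays (circles) and the 3 Mdr2-/- arrays (triangles), with grey lines joining group means. Groups that do not overlap were a condition for the choice of the 30 genes. Trim12a has 1 Mdr2-/- array, at 6.44, far from the other Mdr2-/- arrays.

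Genes of antigen presentation were higher in the knockout. Of 14 tested members 11 rose and 0 fell, with a median log2 change of 0.48 and list means of 8.62 to 8.70 in the Mdr2-/- arrays against 7.90 to 7.94 in the controls. Cd74, the invariant chain that guides class II molecules, lay at 9.38, 9.24 and 9.44 against 7.42, 7.48 and 7.65 (log2 change 1.84, SE 0.15, adjusted p = 7.67e-06). H2-Ab1, the beta chain of I-A, lay at 9.47, 9.21 and 9.30 against 7.57, 7.48 and 7.89 (1.68, adjusted p = 0.000129). H2-Aa, its alpha chain, lay at 9.19, 9.25 and 9.23 against 7.67, 7.43 and 7.81 (1.59, adjusted p = 0.000245). The beta chain of I-E, H2-Eb1, lay at 9.03, 8.94 and 9.14 against 7.49, 7.77 and 7.57 (1.42, adjusted p = 1.24e-05). For these 4 genes every Mdr2-/- array was above every control by more than the spread within either group. Class II probes depend on the H2 haplotype, which the labels do not give.

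Class II genes share a promoter block that ends in a Y box, and the 2 class II promoters held in the RefSeq table are shown for it because these genes moved together. The 130 bases before the start of each gene are printed from GRCm38.p6, 5′ to 3′ on the strand of the gene, with the Y box letters CTGATTGG in capitals. H2-Aa lies on the minus strand at chr17:34287824-34287953 and H2-Eb1 on the plus strand at chr17:34305737-34305866.
H2-Aa: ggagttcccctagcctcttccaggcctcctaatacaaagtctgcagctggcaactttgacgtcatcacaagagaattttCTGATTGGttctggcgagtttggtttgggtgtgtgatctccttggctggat
H2-Eb1: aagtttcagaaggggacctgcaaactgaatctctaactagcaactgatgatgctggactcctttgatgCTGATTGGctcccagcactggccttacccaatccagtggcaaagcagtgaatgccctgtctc
The letters begin 51 bases before the start in H2-Aa and 62 bases before it in H2-Eb1. On either strand they were found in 3.83% of the 32851 windows of 250 bases before a gene start, and a match is a description of the letters, not of binding.

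Chemokines and interferon-related genes changed mostly upward. Of 21 chemokines and cytokines 9 rose and 1 fell (median 0.44), and of 23 interferon response genes 7 rose and 1 fell (median 0.24). Without control C, where 8.27% of all tested genes passed, 5 chemokines and 5 interferon genes rose. The list medians were then 0.38 and 0.28. Cxcl10, the interferon-induced ligand of the chemokine receptor Cxcr3, lay at 10.34, 8.93 and 9.21 against 6.96, 7.10 and 7.54 (log2 change 2.29, SE 0.39, adjusted p = 0.00204). Mdr2-/- array A was the highest. The groups did not overlap, which was a condition for a place among the ranked genes. Cxcl16 rose by 0.85 and Cxcl14, whose controls lay under the 40th percentile, by 0.73. The chemokine that fell was Cxcl12, at 9.94, 10.02 and 9.69 against 10.75, 10.62 and 10.67 (-0.80, adjusted p = 0.000634). Zbp1, a sensor of nucleic acids, rose by 0.74, the GTPase Iigp1 by 0.67 and the transcription factor Irf8 by 0.49, and Bst2, which tethers virus particles, fell by 0.53.

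The promoter of Cxcl10 is shown because its known interferon and NF-kB elements lie close to the start. The 220 bases before the start are on the minus strand at chr5:92348890-92349109 of GRCm38.p6, in RefSeq's sequence, with matches in capitals. The letters searched were, for the interferon element, GAAA, any base, then TGAAAC, and for the NF-kB element GGG, any 3 bases, then TTCC.
Cxcl10: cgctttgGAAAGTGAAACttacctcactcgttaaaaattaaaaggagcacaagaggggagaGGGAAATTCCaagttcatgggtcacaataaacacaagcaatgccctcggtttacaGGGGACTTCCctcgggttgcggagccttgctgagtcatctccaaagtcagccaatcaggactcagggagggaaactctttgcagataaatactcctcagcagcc
The interferon element was found, on either strand, in 0.174% of all windows of 250 bases before a start and the NF-kB element in 4.65%. The motifs printed do not overlap each other.

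Markers of immune cells shifted in part. In whole liver, fewer cells of a type and less RNA per cell cannot be told apart. Of 24 Kupffer cell and macrophage markers 9 rose and 0 fell (median 0.39), with list means of 7.82 to 8.19 in the Mdr2-/- arrays and 7.57 to 7.79 in the controls. Itgax, an integrin of dendritic cells and recruited macrophages, lay at 6.14, 6.11 and 6.26 against 5.37, 5.43 and 5.30 (log2 change 0.81, adjusted p = 0.00095). Gpnmb rose by 1.15, the lysosomal protease Ctss by 0.70 and Trem2 by 0.48. Controls of Itgax and Gpnmb lay under the 40th percentile of their arrays, so both genes passed the filter through arrays in which they were higher. Markers of resident Kupffer cells did not pass the test: Clec4f at -0.29, Timd4 at -0.32 and Marco at -0.63, named after their values were seen. Without Mdr2-/- array A 5 markers rose and 2 fell, and without control C 6 rose.

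Of 14 lymphocyte and natural killer cell markers 5 rose (median 0.30), and without control C or Mdr2-/- array B 2 did. Nkg7, a granule protein of cytotoxic cells, lay at 6.30, 6.18 and 6.35 against 5.66, 5.72 and 5.72 (0.58, adjusted p = 0.00288), and the homing receptor Ccr7 rose by 0.38 from controls under the 40th percentile. Among 12 neutrophil markers Csf3r, the receptor of granulocyte colony-stimulating factor, rose by 0.78 (adjusted p = 0.00187) and Pglyrp1 by 0.52, while 10 did not pass. Controls of Csf3r also lay under the 40th percentile. The call of Pglyrp1 was lost without control C (adjusted p = 0.0794) or Mdr2-/- array B (adjusted p = 0.0547). Of 8 erythroid genes 3 fell, led by Alas2, the first enzyme of heme synthesis in red cells, at -0.80 (adjusted p = 0.00903), and without control C 1 fell.

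**Figure D3:**
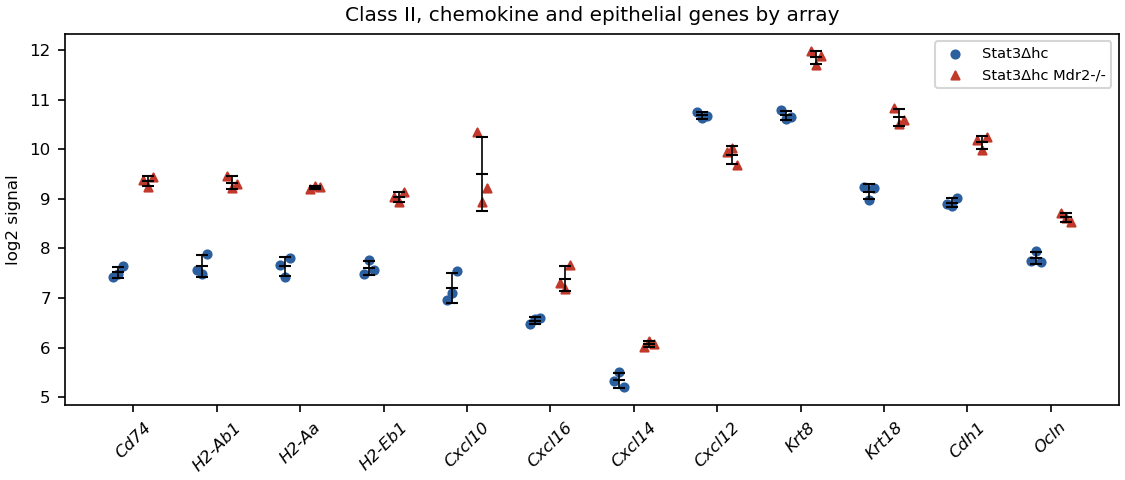
Log2 signal of class II, chemokine and epithelial genes in each control array (circles) and each Mdr2-/- array (triangles), with the mean and SD of 3 arrays as black bars. All 12 genes passed the test and separate the groups, as do 2397 of the 2431 called genes. Cxcl12 is lower and the others are higher in the knockout, and Cxcl10 has its highest value, 10.34, in Mdr2-/- array A.

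Epithelial keratins and junction genes divided. Of 21 members 7 rose and 4 fell (median 0.13), and without control C 5 rose and 2 fell. Krt18 and Krt8, the keratin pair of hepatocytes and bile ducts, led with Cdh1, which encodes E-cadherin. Krt18 lay at 10.83, 10.50 and 10.59 against 9.24, 8.98 and 9.22 (log2 change 1.49, SE 0.18, adjusted p = 0.000219), and Krt8 at 11.97, 11.70 and 11.88 against 10.79, 10.61 and 10.65 (1.16, adjusted p = 0.000212). Cdh1 lay at 10.19, 9.98 and 10.24 against 8.90, 8.85 and 9.02 (1.21, adjusted p = 9.37e-06). No control reached the Mdr2-/- arrays in any of these 3 genes, and groups did not overlap for 2397 of the 2431 called genes. The tight junction protein Ocln rose by 0.82.

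Bile duct and progenitor markers did not move as a group. Of 16, 4 rose and 3 fell (median 0.05). Bicc1, an RNA-binding protein of ductal epithelium, rose by 1.10 (adjusted p = 0.00318), the membrane protein Anxa13 by 0.99 and Pkhd1, the fibrocystin gene of primary cilia, by 0.89 (adjusted p = 0.00414). Krt19, a keratin that defines bile ducts, lay at 6.25, 6.02 and 6.59 against 6.70, 7.47 and 6.84 (-0.72, adjusted p = 0.0186). Control B set it apart from the others, and the call was lost without Mdr2-/- array B (-0.59, adjusted p = 0.0638). Of the other defining markers, Sox9 at 0.13, Epcam at 0.15 and Krt7 at -0.08 did not pass. Without Mdr2-/- array B 6 members rose and 0 fell, and without control C 3 rose and 1 fell.

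Some matrix genes rose, and several markers of stellate and endothelial cells fell. Of 36 extracellular matrix and fibrogenic genes 10 rose, 4 fell and 22 did not pass, with a median of 0.07 against -0.02 for all genes. Timp1, the inhibitor of matrix metalloproteinases, lay at 7.66, 7.05 and 6.93 against 5.36, 5.67 and 5.24 (log2 change 1.79, SE 0.27, adjusted p = 0.00107). Col1a1, the alpha 1 chain of type I collagen, lay at 10.98, 10.97 and 10.94 against 10.19, 10.09 and 10.22 (0.80, SE 0.12, adjusted p = 0.000886). Both were above all controls in each Mdr2-/- array, where groups did not overlap for 2397 of the 2431 called genes. Postn, the matricellular protein periostin, fell by 1.03 (adjusted p = 0.00105), in the same arrays in which the muscle list was lower.

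Of 15 stellate cell and myofibroblast markers 2 rose and 5 fell (median -0.08). Ecm1, an extracellular matrix protein made by hepatocytes and stellate cells, lay at 8.23, 8.09 and 8.02 against 10.03, 10.02 and 9.84 (-1.85, SE 0.14, adjusted p = 3.78e-06). Lrat, which esterifies retinol in quiescent stellate cells, lay at 7.70, 7.21 and 7.14 against 8.20, 8.14 and 8.21 (-0.83, adjusted p = 0.00221). Acta2, smooth muscle actin, fell by 1.15 and is also on the smooth muscle list, of whose 7 members 3 fell. Pdgfrb, the receptor of platelet-derived growth factor on stellate cells, rose by 0.45. Of 22 endothelial markers 9 fell and 0 rose (median -0.24), with list means of 7.88 to 8 against 8.19 to 8.29. Clec14a fell by 0.95 (adjusted p = 8.28e-05), the sialomucin Emcn by 0.65, the receptor of vascular endothelial growth factor Kdr by 0.63 and Oit3 by 0.48. Without control C 6 endothelial markers fell.

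**Figure D4:**
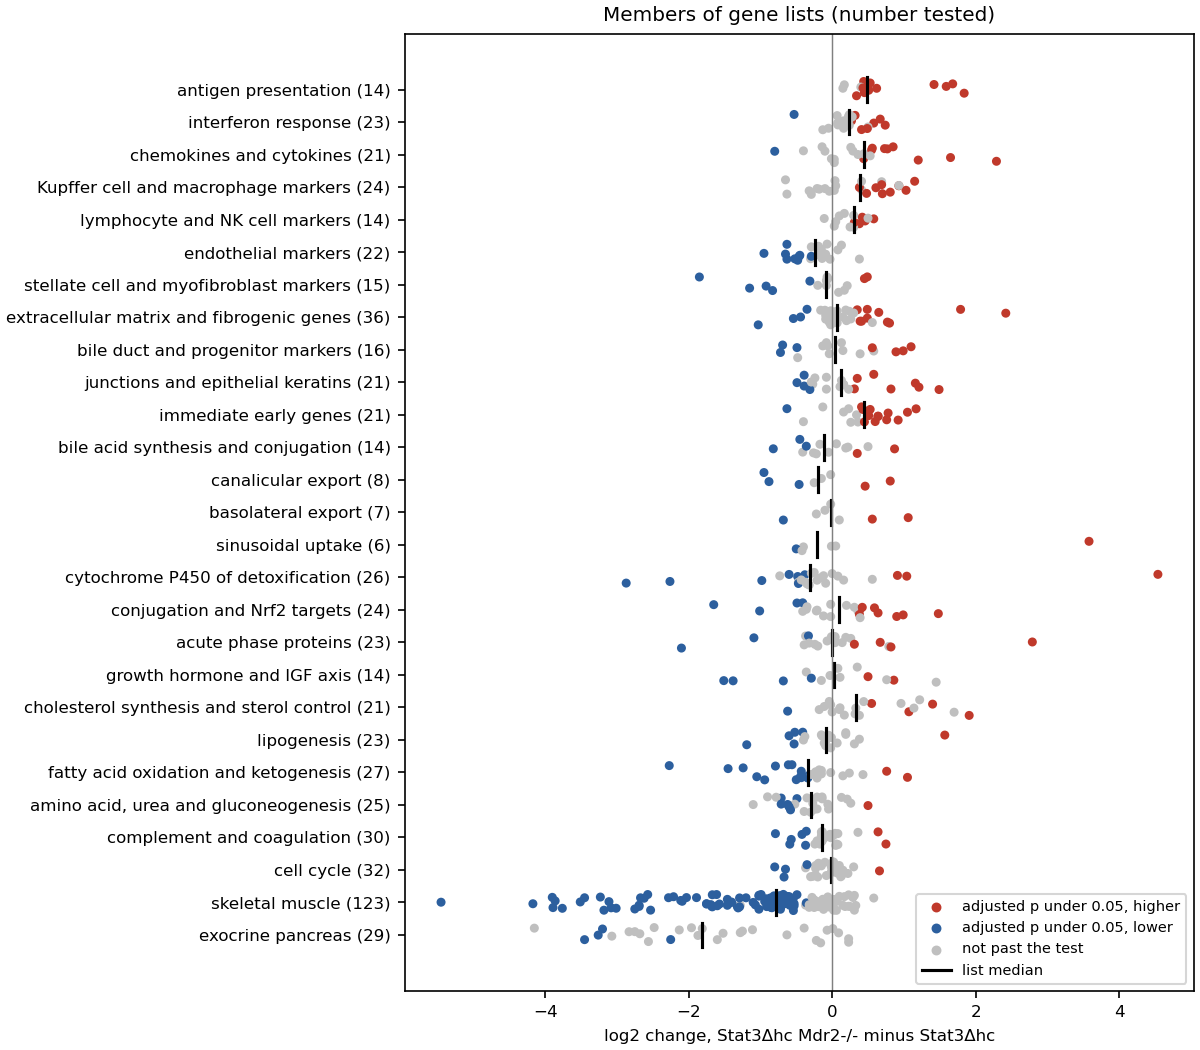
Log2 change (Stat3Δhc Mdr2-/- minus Stat3Δhc) of every tested member of 27 gene lists, with the number tested in brackets. Red and blue points passed the test as higher or lower, grey points did not pass, and black bars are list medians. The median is 0.48 for antigen presentation, -0.34 for fatty acid oxidation and -0.78 for skeletal muscle.

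Bile acid handling was read by step, from synthesis through uptake to export. Of 14 genes of bile acid synthesis and conjugation 2 rose and 3 fell. Cyp7a1, the rate-limiting enzyme, showed a change of 0.06 that did not pass. Hsd3b7, which acts on the sterol ring early in the pathway, lay at 9.74, 9.89 and 9.82 against 10.66, 10.64 and 10.59 (log2 change -0.82, SE 0.10, adjusted p = 0.000298), and Hsd17b4, a peroxisomal enzyme of side chain shortening, fell by 0.45. Cyp8b1, the sterol 12-hydroxylase that makes cholic acid, was at 0.87 (adjusted p = 0.0212). That call was lost without control B or C or without Mdr2-/- array B or C (adjusted p = 0.0508 to 0.071), and without control C or Mdr2-/- array B no gene of synthesis rose.

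Among 8 canalicular exporters 2 rose and 3 fell. Abcb11, the bile salt export pump, lay at 12.37, 12.32 and 12.01 against 11.70, 11.78 and 11.83 (0.46, adjusted p = 0.00766). The sterol transporter subunits Abcg5 and Abcg8, which work as a pair, fell together: Abcg5 lay at 9.75, 9.78 and 10.15 against 10.87, 10.77 and 10.67 (-0.88, adjusted p = 0.000633), and Abcg8 at 8.85, 9.25 and 9.39 against 10.24, 10.12 and 9.97 (-0.95, adjusted p = 0.00231). Abcc2, the conjugate export pump, showed -0.02 and did not pass. Abcb1a, a Mdr1 pump that neighbours Abcb4 on chromosome 5, rose by 0.81 (adjusted p = 0.000293).

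Of 7 basolateral exporters 2 rose and 1 fell. Abcc3, an exporter of bile acids and glucuronides into blood, lay at 8.73, 8.32 and 8.82 against 9.38, 9.52 and 9.02 (-0.68, SE 0.15, adjusted p = 0.00993). Slc51b, the beta subunit of the organic solute transporter, lay at 8.56, 8.35 and 7.19 against 6.99, 6.78 and 7.14 (1.06, adjusted p = 0.0184). Array C of the knockout lay close to the controls, and the call was lost without control A or without Mdr2-/- array A or B (adjusted p = 0.0507, 0.0525 and 0.0612). Of 6 uptake transporters Slco1a1 rose and Slco1b2, a hepatocyte organic anion transporter, fell by 0.50 (adjusted p = 0.0124, and 0.0518 without control C). Among 11 receptors and regulators, the xenobiotic receptor Nr1i2 (PXR) rose by 0.53 and the bile acid receptor Gpbar1 by 0.50, Nr5a2 fell by 0.35, and the nuclear bile acid receptor Nr1h4 (FXR) at -0.36 and its target Nr0b2 (SHP) at -0.18 did not pass.

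Detoxification enzymes changed in both directions. Of 26 cytochromes P450 3 rose and 7 fell (median -0.31). Beside Cyp2c39, Cyp3a16 and Cyp17a1, Cyp1a2, an enzyme of pericentral hepatocytes, lay at 10.65, 10.69 and 10.53 against 11.65, 11.54 and 11.61 (log2 change -0.98, adjusted p = 0.000432). Of 24 conjugation enzymes and Nrf2 targets 8 rose and 4 fell, and 5 rose without control C, with 2 falls, or without Mdr2-/- array A. Ephx1, the microsomal epoxide hydrolase, lay at 11.10, 11.04 and 11.22 against 9.59, 9.49 and 9.84 (1.48, SE 0.11, adjusted p = 3.2e-06), and Gstp1, a pi class glutathione transferase, rose by 0.99 (adjusted p = 0.000361). The glutathione transferases Gstm6 and Gstt3 fell by 1.65 and 1.01.

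Genes of fatty acid oxidation and ketogenesis were lower. Of 27 tested members 15 fell and 2 rose (median -0.34), and without control C 10 fell and 1 rose. Cyp4a31, a fatty acid omega-hydroxylase, lay at 8.17, 7.40 and 7.09 against 9.77, 9.68 and 10.01 (log2 change -2.27, SE 0.22, adjusted p = 3.65e-05), and its relative Cyp4a14 at 10.29, 9.52 and 9.25 against 11.16, 11.05 and 11.21 (-1.45, adjusted p = 0.00163). In both, Mdr2-/- array A was nearest to the controls without reaching them. Pdk4, the kinase that holds back pyruvate oxidation, fell by 1.05 and the fatty acid binding protein Fabp1 by 0.79. Pdk4 is also known from muscle, whose list was lower in these arrays.

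Lipogenic and sterol genes gave smaller groups of calls. Srebf1, the transcription factor of fatty acid synthesis, lay at 8.77, 8.77 and 8.69 against 9.88, 9.86 and 10.05 (-1.19, SE 0.13, adjusted p = 8.39e-05), one of 5 falls and 1 rise among 23 lipogenic genes, with 3 falls and 1 rise without control C. The rise was Lpin1, a phosphatidate phosphatase, at 9.92, 10.02 and 9.07 against 8.48, 8.25 and 7.59 (1.57, adjusted p = 0.00297). Of 21 genes of cholesterol synthesis 4 rose and 1 fell, and 2 rose without control C or Mdr2-/- array B. Sqle, the squalene epoxidase, lay at 7.06, 9.14 and 6.81 against 5.73, 5.89 and 5.66 (1.91, adjusted p = 0.0123). Mdr2-/- array B was far above the others, and without it the change was 1.17 (adjusted p = 0.00416). The list mean spread from 8.15 to 9.51 in the Mdr2-/- arrays and from 8.15 to 8.20 in the controls, and Msmo1 did not pass without Mdr2-/- array B (0.76, adjusted p = 0.076, against 1.4 with it), and 6 of the 12 ways to leave out 1 array ended its call.

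Plasma protein and hepatocyte genes changed gene by gene. Of 18 hepatocyte markers 2 fell, the thyroxine carrier Ttr by 0.36 and the transcription factor Foxa2 by 0.53. Without control C 0 fell, and the call of Foxa2 (adjusted p = 0.0498) was lost in 7 of the 12 ways to leave out 1 array. Albumin (Alb) showed -0.08 and Hnf4a 0.09, and neither passed. Of 23 acute phase genes 4 rose and 3 fell with a median of 0.00. Crp, C-reactive protein, rose by 0.67 (adjusted p = 0.000364) beside Lcn2, and Saa4, a constitutive serum amyloid, fell by 1.09 (adjusted p = 0.00137). Fgl1, a secreted fibrinogen-like protein of hepatocytes, lay at 7.06, 7.46 and 7.28 against 9.37, 9.07 and 9.68 (-2.10, SE 0.21, adjusted p = 4.18e-05). Of 30 complement and coagulation genes 2 rose and 6 fell, with Mbl2, the mannose-binding lectin, at -0.79 (adjusted p = 0.000313) and C4b at -0.59. Of 25 genes of amino acid, urea and glucose synthesis 6 fell and 1 rose, with Agxt at -0.71, Haao at -0.62 and Nags at -0.60.

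Igfbp3 and Igfals fell with Igf1 itself. Igfbp3, which carries IGF1 in blood, lay at 6.71, 7.34 and 7.21 against 8.63, 8.55 and 8.59 (log2 change -1.51, SE 0.14, adjusted p = 3.37e-05). Igfals, the acid-labile subunit of the same complex, lay at 6.45, 7.30 and 6.94 against 8.30, 8.15 and 8.37 (-1.38, adjusted p = 0.000216), and Igf1 at 9.73, 9.89 and 9.85 against 10.51, 10.41 and 10.59 (-0.68, adjusted p = 0.00104). All 3 genes were below every control in each Mdr2-/- array, where groups did not overlap for 2397 of the 2431 called genes. Of 14 members of the growth hormone and IGF axis 4 fell and 2 rose. The list median was 0.03, with 7 members above 0, 7 below and changes from -1.51 to 1.45. Igf2, the fetal growth factor, went the other way, at 10.84, 10.96 and 10.05 against 8.26, 7.96 and 8.79 (2.28, SE 0.30, adjusted p = 0.000416). Afp, the fetal serum protein, lay at 10.83, 10.05 and 9.81 against 8.75, 7.85 and 8.92 (1.72, adjusted p = 0.0138). Of the 13 fetal and imprinted genes 2 rose, these, and 2 fell, Mest by 0.85 and Cdkn1c by 0.69.

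Immediate early genes were higher. Of 21 members 13 rose and 1 fell (median 0.45). Without control C 7 rose (median 0.46) and without Mdr2-/- array A 8 (median 0.41). Gadd45b, a stress-induced gene, lay at 8.18, 7.97 and 7.60 against 6.79, 6.92 and 6.52 (log2 change 1.17, SE 0.19, adjusted p = 0.00166). Jun, a subunit of AP-1, lay at 8.47, 8.06 and 7.91 against 6.97, 7.19 and 7.51 (0.92, adjusted p = 0.00187). The transcription factors Egr2 and Klf6 rose by 0.78 and 0.76. Atf3, a stress transcription factor, rose by 1.15 (adjusted p = 0.00105), one of 2 rises and 1 fall among 20 genes of the integrated stress response.

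Death receptor and Stat3-linked genes were read beside all tested genes, of which 6.9% passed as higher and 10.5% as lower. Of 17 genes of apoptosis 4 rose, among them Tnfrsf12a, the receptor of the cytokine TWEAK, at 8.69, 8.03 and 8.39 against 6.91, 7.12 and 7.14 (1.32, SE 0.19, adjusted p = 0.000661), and Tnfrsf10b, the mouse TRAIL receptor, at 0.68. Of 17 receptors and mediators of interleukin 6 signalling 3 rose and 1 fell, with Il6st, the shared receptor chain gp130, at 0.53 (adjusted p = 0.00281), and without control C 1 rose. Of 10 EGF receptors and ligands 3 rose (median 0.36), and 0 did without control C (median 0.33). Of 32 cell cycle genes 1 rose and 4 fell: Ccnd1, cyclin D1, rose by 0.66 (adjusted p = 0.0021) and Rrm2, the ribonucleotide reductase subunit, fell by 0.80 (adjusted p = 0.00474). Without control C 1 cell cycle gene rose and 1 fell. Zbtb16, a glucocorticoid-induced transcription factor, lay at 9.56, 9.46 and 9.32 against 8.12, 7.85 and 7.22 (1.72, adjusted p = 0.000398). Of 16 circadian genes 0 passed in limma and 5 had an unadjusted p under 0.05, with Per1 at 0.52 and Cry1 at -0.52. Without Mdr2-/- array A 1 circadian gene rose and 2 fell, Cry1 among them (-0.81, adjusted p = 0.00857). Per1 passed without control B (0.69, adjusted p = 0.0342) or Stat3Fl/Fl array A (0.52, adjusted p = 0.0401).

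The same Mdr2 comparison in Stat3Fl/Fl liver uses other arrays, in a fit that gives both comparisons the same estimate of each gene's spread. There 1785 genes (12.8%) passed the test, 7.12% as higher and 5.65% as lower. Of the 2431 genes called in Stat3Δhc liver 900 (37%) were also called there, which is 50.4% of the Stat3Fl/Fl calls, and 894 of the 900 had the same direction. Of the 89 rises of at least 2-fold in Stat3Δhc liver, 66 were called as higher and 2 as lower in Stat3Fl/Fl liver, and of the 75 falls outside the other-tissue lists 48 were called as lower. Being called in 1 background and not in the other is no test of a difference. All 3 Stat3Fl/Fl Mdr2-/- arrays have the Xist pattern and the 3 Stat3Fl/Fl arrays the Y-linked one. Sex pattern and Mdr2 loss therefore cannot be told apart in Stat3Fl/Fl liver.

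The test of the difference between the Mdr2 effects passed for 10 genes (0.0715%), and 2360 genes (16.9%) had an unadjusted p under 0.05. Igf2 was higher by 2.28 in Stat3Δhc liver and showed -0.78 in Stat3Fl/Fl liver, where it lay at 11.60, 11.54 and 10.75 with and 11.58, 12.32 and 12.35 without the knockout (difference 3.06, SE 0.43, adjusted p = 0.038). Abcc3 fell by 0.68 in Stat3Δhc liver and rose by 0.70 in Stat3Fl/Fl liver, from 7.84, 7.82 and 7.97 to 8.63, 8.36 and 8.74 (difference -1.38, SE 0.22, adjusted p = 0.0387). Fgl1 lay at 11.24, 11.94 and 12.07 with and 11.65, 12.01 and 12.02 without Mdr2 loss in Stat3Fl/Fl liver, where the groups overlap (-0.15), and differed by -1.96 (SE 0.29, adjusted p = 0.038). Cyp3a16, Cyp4a31 and Ecm1 fell more in Stat3Δhc liver, by differences of -2.23, -1.97 and -1.35 (adjusted p = 0.038, 0.0387 and 0.038).

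The calls of these differences, more than their sizes, moved with single arrays. With any 1 of the 12 arrays left out, the difference lay between 2.79 and 3.34 for Igf2, between -2.54 and -1.94 for Cyp3a16, between -2.28 and -1.74 for Cyp4a31 and between -2.21 and -1.80 for Fgl1. For Ecm1 it lay between -1.51 and -1.17 and for Abcc3 between -1.52 and -1.23. No gene passed without control A, control B, Mdr2-/- array B or Stat3Fl/Fl array C, and 64 passed without Stat3Fl/Fl array A. With the Xist or Y-linked pattern as a covariate 6 genes passed, and 0 of them were among the 10. The pattern varies within a genotype only through Stat3Δhc Mdr2-/- array A, so that covariate rests on a single array. Afp changed in opposite directions, by 1.72 in Stat3Δhc liver and by -1.4 (adjusted p = 0.0418) in Stat3Fl/Fl liver, but the difference of 3.13 did not pass (adjusted p = 0.0715). The same holds for Gbp11, an interferon-induced GTPase, with 1.08 and -1.14 (adjusted p of the difference 0.0715), and for Me1, the malic enzyme, with -0.60 and 0.72 (adjusted p of the difference 0.0699), both named after their values were seen.

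**Figure D5:**
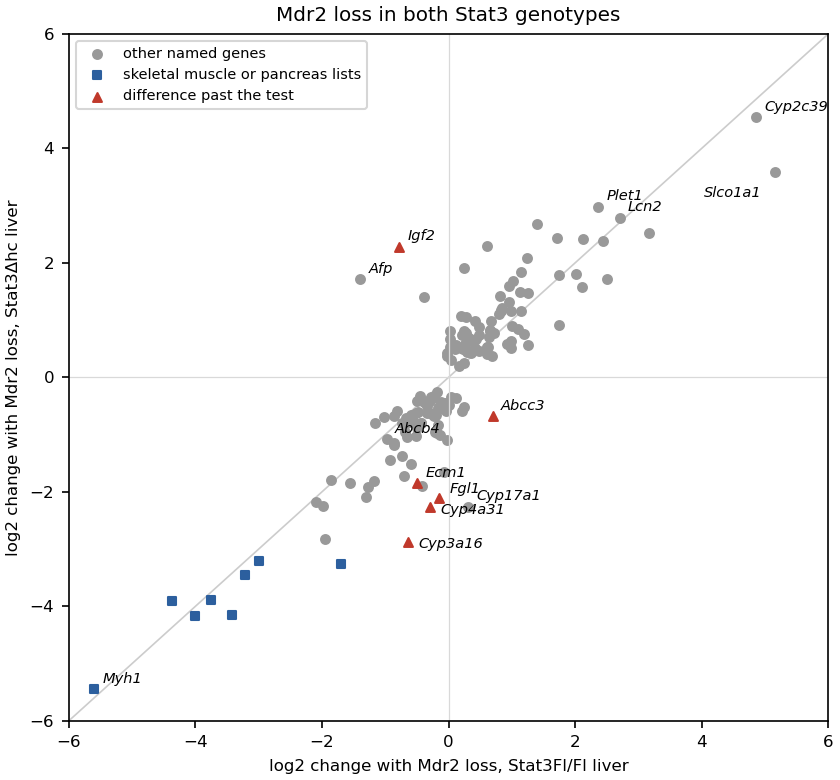
Log2 change with Mdr2 loss in Stat3Fl/Fl liver (x axis) and in Stat3Δhc liver (y axis) for the named genes, with the line of equal change. Blue squares are the named skeletal muscle and pancreas genes, and red triangles are the named genes whose difference passed the test: Igf2 lies above the line, and Abcc3, Ecm1, Fgl1, Cyp4a31 and Cyp3a16 lie below it.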

How the data were processed

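Transcripts of whole liver were measured on 12 Affymetrix mouse gene arrays. The authors deposited log2 values made with RMA, per the submitters' processing notes, whose version is not given in the sources used here. Groups follow the titles, since the source name swaps the Mdr2-/- genotypes against title and genotype. Of 35556 transcript clusters 21789 had 1 symbol in GEO's platform annotation, 1621 several and 12146 none. Each of 19938 genes was taken by its cluster of highest mean (999 had more than 1), and 13977 were tested after a filter that asked for a signal over the 40th percentile of the array in 3 or more arrays. In limma 3.58.1 (R 4.3.3) lmFit and eBayes were fitted on all 12 arrays (8 residual degrees of freedom, median SE 0.11), with Benjamini-Hochberg adjusted p at 0.05. The 3 arrays per group limit the precision.

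Named genes were Abcb4, Stat3, the 15 largest rises and falls that passed with groups apart, outside other-tissue lists and placeholder symbols, up to 4 passing members of each liver list by smallest adjusted p (the 2 largest changes where fewer than 2 passed), and the 4 largest changes of the muscle and pancreas lists. Genes outside this rule are named to fill small counts or as defining markers. Members and the 53 lists were chosen with earlier results of these data known. Alternatives were other filters, cluster means, median centring, cyclic loess, array weights, eBayes with trend and robust settings, 6 arrays only, a replicate block, a sex covariate, omitted X and Y or other-tissue genes, source name groups and each array left out. Recounts of lists without Mdr2-/- array A or B or control C were added after seeing the data. On simulated data for this comparison limma found 80% of 50 genes given a 1.5-fold change, 94% of 50 at 2-fold and 100% at 3- and 4-fold. It called 18 of 13777 genes left alone. The simulated arrays had independent noise, far fewer changed genes than the real ones and no tissue or sex differences. They therefore do not give the error rate of the real comparison. Promoters are from RefSeq (GRCm38.p6). Plots were made in Python 3.11.15 (matplotlib 3.10.9).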

Additional observations from a re-analysis of the deposited data

Results flagged for a closer look

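A test of the difference between the Mdr2 effects in Stat3Δhc and Stat3Fl/Fl liver passed for 10 genes, and values are the effect in Stat3Δhc minus that in Stat3Fl/Fl liver. The difference was 3.06 for Igf2, -1.38 for Abcc3, -2.23 for Cyp3a16, -1.97 for Cyp4a31, -1.35 for Ecm1 and -1.96 for Fgl1, all described above. The other 4 genes were named after their values were seen. Efemp1, a fibulin of the extracellular matrix, fell by 1.06 in Stat3Δhc liver and showed -0.18 in Stat3Fl/Fl liver (difference -0.88, SE 0.13, adjusted p = 0.038). Olig1, a transcription factor of oligodendrocytes, showed 0.89 and -0.18 (difference 1.07, SE 0.14, adjusted p = 0.038). Tenm3, a teneurin adhesion protein, showed -0.74 and -0.01 (difference -0.73, SE 0.11, adjusted p = 0.038). Ctns, the lysosomal cystine exporter, showed -0.24 and 0.57 (difference -0.80, SE 0.12, adjusted p = 0.0387).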

How the results depend on the processing

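Of 163 named genes 158 passed the test, and 126 of them kept direction and call in every setting tried except groups by source name, with 0 reversed. The count of changed genes (2431) was 5830 with array weights, 1541 with only the 6 arrays compared and 1153 to 2606 with 1 array left out. With the replicate block it was 1865, and the labels do not say whether letters pair the arrays. Deviations from the means of the 2 compared groups correlated at -0.05, -0.22 and -0.41 for letters A, B and C. With 3 arrays per group these values cannot decide whether arrays of the same letter share a batch. The count of differing Mdr2 effects (10) was 6 without a filter on low values, 23 with trend and robust eBayes, 567 with array weights, 3 with the replicate block, 6 with the sex covariate, 1421 with groups by source name and 0 to 64 with 1 array left out. The at least 2-fold changes (220) were 164 without other-tissue list genes. Groups by source name, against title, description and genotype label, reversed the changes of Fgl1 (2.38), Lrat (0.10), Scp2 (0.04), Cyp8b1 (-0.02), Igfals (0.77), Igf1 (0.58), Rrm2 (0.08), Msmo1 (-0.15), Mest (0.19) and C4b (0.63) and the differences of Cyp3a16 (1.92), Cyp4a31 (1.43), Fgl1 (7) and Ecm1 (0.99). The cause of these moves was not tested. Signal near the low end of the arrays limits the folds of low genes.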

Other observations

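Genes close to Abcb4 on chromosome 5 were called more often than the chromosome as a whole. Of the 46 tested genes nearest to Abcb4 in the order of the RefSeq table, 25 to a side where there are as many, 16 passed the test (34.8%), against 17.4% of the tested genes of the chromosome and 17.4% of all tested genes. They were chosen by position, not by value, and no test of this share was made. Abcb1a, Abcb1b, Steap2 and Steap4 rose by 0.81, 0.56, 0.41 and 0.82 on the log2 scale. Abcb1b lay under the 40th percentile in every control and at 5 or less in every array without the knockout. It therefore passed the filter only through Mdr2-/- arrays. Its call was lost without control A or C or without Mdr2-/- array A or C (adjusted p = 0.0706 to 0.0948). Sema3d, Sema3c, Cacna2d1, Cd36, Pmpcb and Reln fell by 0.81, 0.68, 0.85, 0.52, 0.50 and 0.31. Cldn12, Phtf2, Tmem60, A630072M18Rik, Psmc2 and Orc5 fell by 0.49, 0.39, 0.55, 0.55, 0.33 and 0.55. Falls outnumbered rises, as they did over all tested genes, of which 10.5% passed as lower and 6.9% as higher. In Stat3Fl/Fl liver Abcb1a, Abcb1b and Steap4 also rose, by 0.65, 1.26 and 1.02, and Cacna2d1, Sema3c and Pmpcb fell by 0.82, 0.79 and 0.47. The labels do not give the strain of the knockout allele.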
